A study of Mus musculus with 19 samples.

Results

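Olfm4, Smoc2, Igfbp4, Rgmb, Slc12a2, Aqp4, Cdk6, Cdca7 and Soat1 are 9 genes that mark the Lgr5-positive intestinal stem cells (ISCs) of the crypt base. They are not among the 6 ISC genes the study plotted from its RNA sequencing (Lgr5, Ascl2, Sox9, Msi1, Ephb3 and Tnfrsf19). They were chosen by name and matched by symbol to the gene identifiers of the count files. All 9 were found once among the 55487 genes of the files, and all 9 passed the filter on low counts that left 17875 genes to test. Their counts per mouse ran from 182 (Igfbp4 in NT-/- Fast 2) to 55719 (Olfm4 in NT-/- AL 1).

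RNA was sequenced from isolated small intestinal crypts of 19 C57BL/6 mice, with 1 library for each mouse. The aim was to compare the effect of food withdrawal with and without the gut peptide neurotensin. By the study's methods, crypts were taken from the proximal part of the small intestine. The most distal part, where the study places the strongest effect of neurotensin, was left out. There were 5 NT+/+ mice fed ad libitum (NT+/+ AL), 4 NT-/- mice fed ad libitum (NT-/- AL), 5 NT+/+ mice fasted for 48 hours (NT+/+ Fast) and 5 NT-/- mice fasted for 48 hours (NT-/- Fast). No tissue-specific driver is given for the neurotensin knockout. The study describes its fed and fasted mice of both genotypes as Lgr5-EGFP, an allele that the labels of the sequenced mice do not name. In its fasting experiments the fed control mice were littermates matched for sex and age. Both sexes were used, and the mice were 10 to 16 weeks old. The total count per mouse ranged from 9059457 to 35068711 (median, 18541819). In bulk crypt RNA a lower level can come from fewer cells of a type or from less RNA per cell, which cannot be told apart by these counts. By flow cytometry of fresh crypts, the study found the number of Lgr5-GFP-positive ISCs unchanged by fasting and by the knockout.

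The labels were checked with Nts, the neurotensin gene, which lay between 4.98 and 8.59 CPM (counts per 1000000 of the scaled library) in the 10 mice titled NT+/+ and between 0.144 and 0.793 CPM in the 9 titled NT-/-. The title and the genotype label of NT+/+ Fast 5 disagree, and its Nts level was 5.43 CPM. It was grouped by title. Fits with this mouse regrouped by its other label place a mouse with the Nts level of NT+/+ mice among the NT-/- Fast mice. A further 3 libraries stood apart: NT+/+ AL 1 had 11.5% of its counts in 1 gene, and NT-/- Fast 2 and NT-/- Fast 4 had the lowest totals, 9059457 and 10067632 counts. For the 9 members, calls and counts of direction that change without these 4 mice are given both ways. Epithelial markers were present in every mouse (summed level, 5529 to 7613 CPM), whereas fibroblast and muscle markers summed to at most 9.37 CPM and endothelial markers to at most 2.72 CPM. Immune cell markers were also present, at 80.5 to 249 CPM in sum. Of the 10 immune markers tested, 1 rose with fasting in NT-/- mice (Gzma; log2 fold change, 0.97; edgeR, adjusted p = 0.0356) and 0 passed in NT+/+ mice.

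ISCs sit between the Paneth cells at the base of the crypt, divide about daily and replace the cells of the villus. Wnt signaling keeps them in the stem cell state and Notch signaling keeps them from turning into secretory cells. The 9 genes do different things in these cells. Olfm4, Smoc2 and Igfbp4 encode secreted proteins, Rgmb a co-receptor for bone morphogenetic proteins (BMPs), Slc12a2 and Aqp4 membrane transporters of ions and water, Cdk6 and Cdca7 proteins of the cell cycle and of chromatin, and Soat1 an enzyme that esterifies cholesterol.

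In the mouse genome build GRCm38 (GENCODE annotation), the genes lie as follows: Olfm4 (ENSMUSG00000022026) at chr14:79984081-80023139, Smoc2 (ENSMUSG00000023886) at chr17:14279506-14404790, Igfbp4 (ENSMUSG00000017493) at chr11:99041244-99054392, Cdk6 (ENSMUSG00000040274) at chr5:3341485-3531008 and Cdca7 (ENSMUSG00000055612) at chr2:72476159-72486893 on the plus strand, and Rgmb (ENSMUSG00000048027) at chr17:15803188-15831039 and Soat1 (ENSMUSG00000026600) at chr1:156424525-156474331 on the minus strand. Slc12a2 (ENSMUSG00000024597) and Aqp4 (ENSMUSG00000024411) are given by identifier alone. The counts are per gene, over all exons and untranslated regions of its transcripts. Counts of Cdk6 were not whole numbers in any of the 19 mice, and those of Olfm4 were not in 6 mice (any remainder was counted), so part of their reads was divided between genes by the counting model. The Cdk6 and Olfm4 values are uncertain to that extent, while the counts of the other 7 members were whole in every mouse.

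Olfm4 and Igfbp4 were the 2 members that passed the test in NT+/+ mice, in opposite directions, so the 250 bases before their RefSeq transcription starts (GRCm38.p6, plus strand) are shown. The Olfm4 window is chr14:80000052-80000301, which lies inside the wider GENCODE span of the gene, and the Igfbp4 window is chr11:99040994-99041243, which ends 1 base before the GENCODE start. Capitals mark TGGGAA, the core bound by RBP-J, the DNA-binding partner of Notch, and TATAAA, the TATA box.
Olfm4: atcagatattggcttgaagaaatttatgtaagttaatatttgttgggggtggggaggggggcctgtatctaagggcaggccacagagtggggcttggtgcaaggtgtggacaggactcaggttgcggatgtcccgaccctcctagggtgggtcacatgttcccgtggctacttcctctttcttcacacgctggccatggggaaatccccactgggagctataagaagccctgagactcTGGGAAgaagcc
Igfbp4: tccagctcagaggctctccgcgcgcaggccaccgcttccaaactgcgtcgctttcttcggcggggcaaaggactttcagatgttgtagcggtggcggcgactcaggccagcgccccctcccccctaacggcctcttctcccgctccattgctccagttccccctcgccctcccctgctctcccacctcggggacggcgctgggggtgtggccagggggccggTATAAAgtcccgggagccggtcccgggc

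Both strands were searched. TGGGAA began at position -12 from the Olfm4 start, and 21.6% of 32851 windows of this length in the RefSeq table hold it on either strand. TATAAA began at position -28 from the Igfbp4 start, and 12.4% of the windows hold it. The RefSeq table gave windows for 6 of the members, and in these the TCF/LEF cores CTTTGAA (in 4.46% of all windows) and CTTTGAT (3.21%), through which Wnt signaling acts on DNA, were not found. Cdca7 also held TGGGAA, and Cdk6 and Rgmb held TATAAA. These matches describe the letters of the windows and were not tested against the expression values.

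Levels of different genes were compared as TPM, the share of a transcript among 1000000 transcripts, which accounts for transcript length. In NT+/+ AL mice Olfm4 had 918 ± 232 TPM (SD, n = 5), above 99.6% of the tested genes, and was far above the other members. Slc12a2 followed with 106 ± 20.5 TPM, Cdca7 with 54.5 ± 7.82, Smoc2 with 45.9 ± 8.09, Rgmb with 40.1 ± 8.77, Soat1 with 28.6 ± 5.45, Cdk6 with 18.6 ± 3.09, Aqp4 with 12.6 ± 3.04 and Igfbp4 with 11.9 ± 3.00 TPM. Lgr5 itself, the receptor that names these cells, lay between 5.66 and 13.1 TPM in the same 5 mice.

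The upper part of this order held mouse by mouse. Olfm4 was above Slc12a2, Slc12a2 above Cdca7, and Cdca7 above Smoc2 in 19 of 19 mice. Smoc2 was above Rgmb in 5 of 5 NT+/+ AL mice but in only 13 of 19 mice over the 4 groups. Rgmb was above Soat1, Soat1 above Cdk6, and Cdk6 above Aqp4 in 18 of 19 mice each. Aqp4 and Igfbp4 changed places: Igfbp4 was the higher of this pair in 2 of 5 NT+/+ AL and 2 of 4 NT-/- AL mice, in 4 of 5 NT+/+ Fast mice and in 5 of 5 NT-/- Fast mice.

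**Figure D1:**
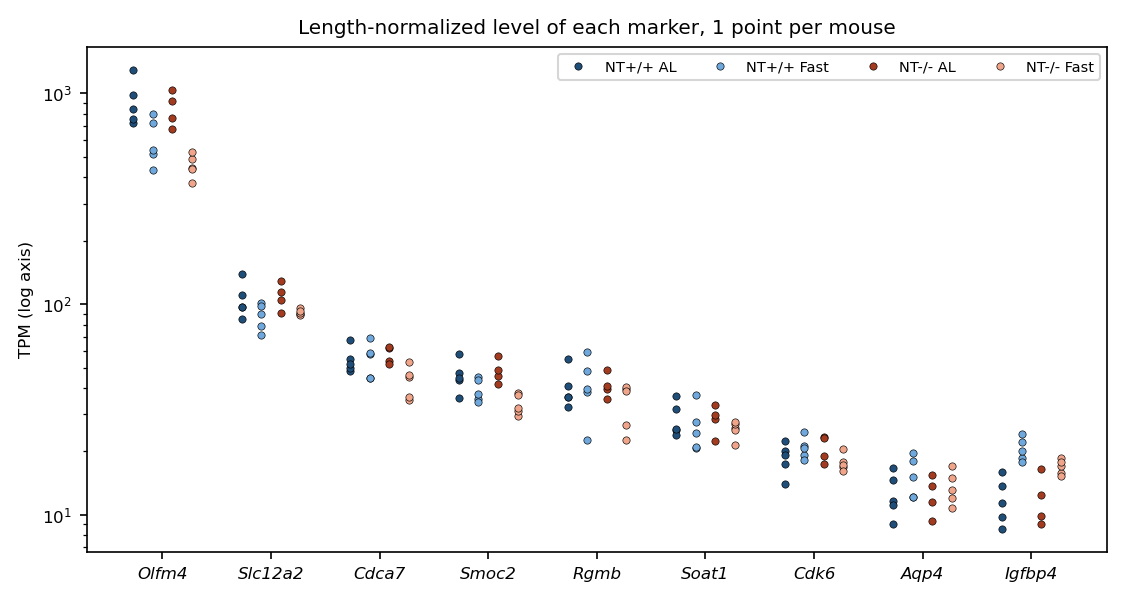
TPM (log axis) of the 9 stem cell markers, 1 point per mouse, in the 4 groups, ordered by the mean in NT+/+ AL mice. Olfm4 stands highest in every mouse, at 918 TPM on average in NT+/+ AL mice against 11.9 TPM for Igfbp4.

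The next question was which markers changed with fasting in each genotype. In NT+/+ mice 2 of the 9 members had an adjusted p under 0.05, against 21.6% of all tested genes (11.2% higher and 10.4% lower in fasted mice): Igfbp4 rose and Olfm4 fell. In NT-/- mice 2 of the 9 passed, against 25.2% of all tested genes (12.5% higher and 12.6% lower): Olfm4 and Smoc2 fell. With no scaling factors the split over all genes in NT-/- mice was 1716 higher and 3057 lower, beside 2242 and 2257 with them, and Olfm4 and Smoc2 passed there too. The comparisons share groups of mice, so each is given with its own values and background. At an unadjusted p under 0.05, 3 of the 9 passed in each genotype, against 34.1% of all tested genes in NT+/+ mice and 36.5% in NT-/- mice. The median log2 fold change of the 9 members was -0.00 in NT+/+ mice, beside -0.01 for all tested genes, and -0.25 in NT-/- mice, beside -0.02 for all tested genes. The share called among the 9 was near the background in both genotypes. The same backgrounds, 21.6% and 25.2%, apply to the lists of related genes and cell markers given with fasting.

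**Figure D2:**
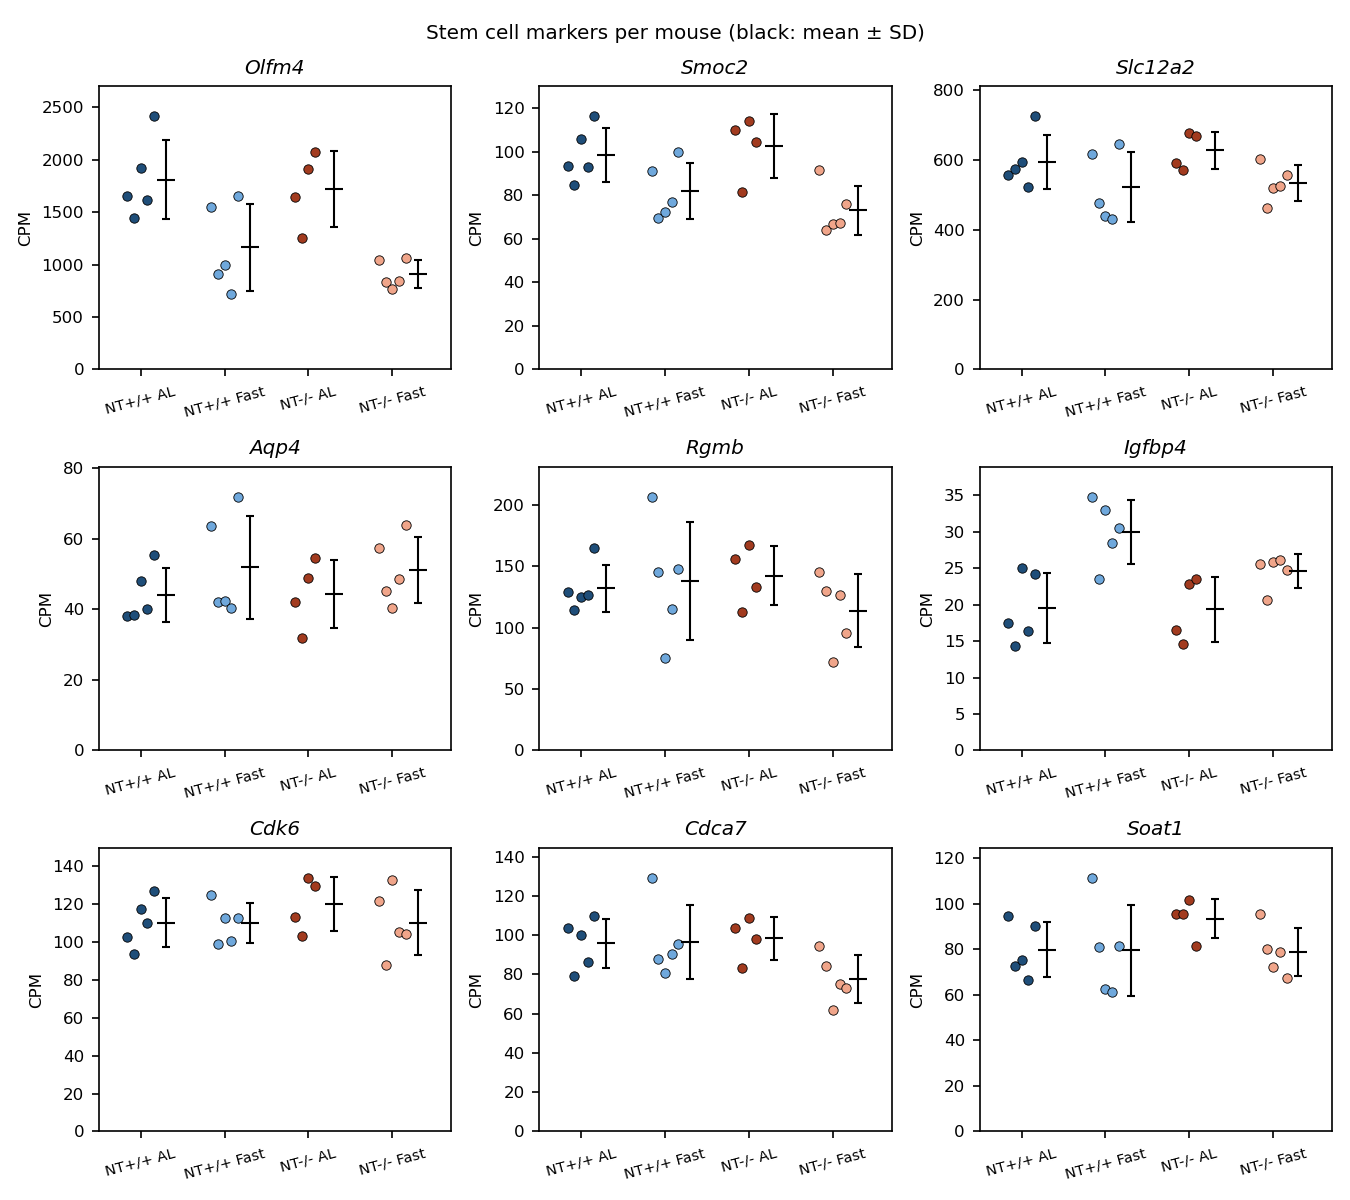
CPM of each marker, 1 point per mouse, with the mean and SD of each group in black; every axis starts at 0. Olfm4 falls from means of 1809 and 1719 CPM in the fed groups to 1166 and 911 CPM in the fasted groups, and Igfbp4 rises from 19.5 to 30.0 CPM in NT+/+ mice.

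Olfm4, a secreted glycoprotein of ISCs and a target of Notch signaling, fell in both genotypes. It measured 1652, 1444, 1924, 1614 and 2413 CPM in the 5 NT+/+ AL mice and 1546, 909.5, 999.8, 715 and 1658 CPM in the 5 NT+/+ Fast mice. NT+/+ Fast 1 and 5 lay within the range of the fed mice, and the other 3 below it. Each fasted mouse was nonetheless lower than the fed mouse of the same set (sets are described with the processing), in 5 of 5 sets, by factors between 0.443 and 0.936. Its log2 fold change was -0.63 ± 0.21 (SE; n = 5 and 5; edgeR quasi-likelihood test, Benjamini-Hochberg adjusted p = 0.0322). The call was lost when any 1 of 5 mice was left out: the adjusted p was 0.0618 without NT+/+ AL 3, 0.0976 without NT+/+ AL 5, 0.0905 without NT+/+ Fast 2, 0.0738 without NT+/+ Fast 3 and 0.0891 without NT+/+ Fast 4, and 0.0655 when only the groups compared entered the fit (edgeR).

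In NT-/- mice the fall of Olfm4 was clearer. It measured 1644, 1249, 1912 and 2071 CPM in the 4 NT-/- AL mice and 1045, 836, 771, 839 and 1065 CPM in the 5 NT-/- Fast mice. Every fasted mouse was below every fed mouse, and Olfm4 was the only 1 of the 9 members whose groups did not overlap in this comparison, against 21.3% of all tested genes. No member's groups were separate in NT+/+ mice, against 14.6% of all tested genes. Fasting changed Olfm4 by -0.92 ± 0.22 on the log2 scale (SE; n = 4 and 5; edgeR, adjusted p = 0.00409), and the adjusted p stayed between 0.00198 and 0.0169 with each mouse left out in turn. Without the 4 libraries in doubt Olfm4 passed in both genotypes (log2 fold change, -0.82 and -0.81; edgeR, adjusted p = 0.0213 and 0.0304). Of the relatives of Olfm4 and the Notch genes listed with it (Olfm1, Olfm2, Notch1, Hes1, Dll1, Dll4 and Atoh1), 0 of 7 passed in either genotype; Olfm3 had too few counts to test.

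Smoc2, a secreted calcium-binding protein of the matrix, fell in NT-/- mice. It measured 110.0, 81.6, 114 and 105 CPM in NT-/- AL mice and 91.7, 64.2, 67.0, 67.2 and 76.2 CPM in NT-/- Fast mice. NT-/- Fast 1 was the only fasted mouse above the lowest fed mouse. Its log2 fold change was -0.49 ± 0.13 (SE; n = 4 and 5; edgeR, adjusted p = 0.00906), it was lower in 4 of 4 sets, and the call held with any 1 mouse left out. Without the 4 libraries in doubt the log2 fold change was -0.36 (edgeR, adjusted p = 0.0817).

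In NT+/+ mice Smoc2 measured 93.4, 84.7, 106, 92.9 and 116 CPM in the fed group and 91.1, 69.8, 72.5, 76.9 and 99.9 CPM in the fasted group. The groups overlapped, and the log2 fold change was -0.27 ± 0.12 (SE; n = 5 and 5; edgeR, adjusted p = 0.129). Smoc2 was lower in the fasted mouse in 5 of 5 sets, however, and with the set as a block it passed (log2 fold change, -0.27; edgeR, adjusted p = 0.0247). Of its relatives Smoc1 did not pass in either genotype, and Sparc and Sparcl1 had too few counts to test.

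Igfbp4, which binds insulin-like growth factors outside the cell, was the member that rose in NT+/+ mice. It measured 17.5, 14.4, 25.0, 16.4 and 24.2 CPM in NT+/+ AL mice and 34.7, 23.5, 32.9, 28.4 and 30.5 CPM in NT+/+ Fast mice. Of the fasted mice, 4 of 5 were above every fed mouse, and NT+/+ Fast 2 lay within the range of the fed group. Fasting changed it by 0.63 ± 0.16 on the log2 scale (SE; n = 5 and 5; edgeR, adjusted p = 0.00772), it was higher in 5 of 5 sets, and the call held with any 1 mouse left out (adjusted p, 0.00413 to 0.0231). Without the 4 libraries in doubt it was 0.59 (edgeR, adjusted p = 0.0406).

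In NT-/- mice Igfbp4 measured 16.5, 14.6, 22.8 and 23.5 CPM in the fed group and 25.6, 20.7, 25.9, 26.1 and 24.8 CPM in the fasted group. Only NT-/- Fast 2 lay within the range of the fed mice. The log2 fold change of 0.35 ± 0.17 did not pass (SE; n = 4 and 5; edgeR, adjusted p = 0.140), although Igfbp4 was higher in 4 of 4 sets. Of the 11 relatives and partners listed with it, 5 had enough counts to test, and 2 of them passed and rose in both genotypes. Igf2, a growth factor that Igfbp4 binds, rose by 0.74 on the log2 scale in NT+/+ mice (edgeR, adjusted p = 0.00568) and 0.62 in NT-/- mice (adjusted p = 0.0208), from 2.65 and 3.04 CPM. Insr, the insulin receptor, rose by 0.24 (edgeR, adjusted p = 0.0269) and 0.38 (adjusted p = 0.00221). Igf1 and Pappa, the protease that cleaves Igfbp4, were near 0 (at most 0.107 CPM in any mouse).

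**Figure D3:**
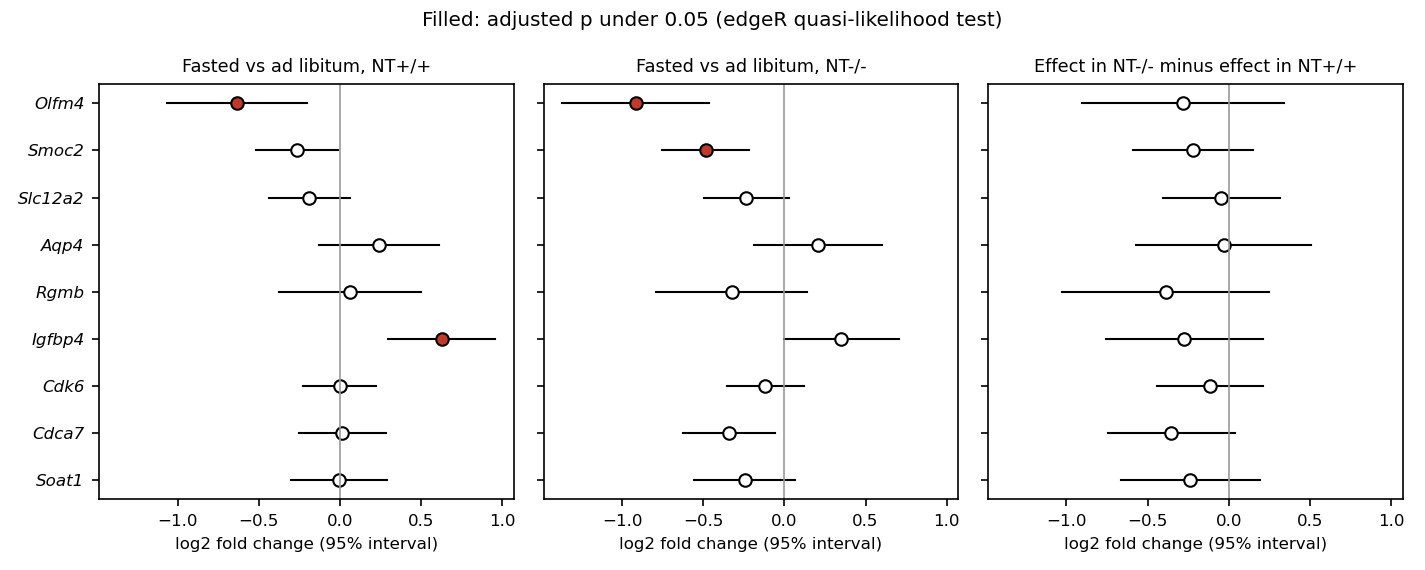
log2 fold change of each marker with its 95% interval for fasting in NT+/+ mice (left), fasting in NT-/- mice (center) and the difference between these effects (right); filled points have an adjusted p under 0.05 by edgeR's quasi-likelihood test. Olfm4 (-0.63) and Igfbp4 (0.63) are filled on the left, Olfm4 (-0.92) and Smoc2 (-0.49) in the center, and no point on the right.

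Rgmb, the BMP co-receptor, had a coefficient of variation of 14.6% to 34.8% within the 4 groups. It measured 129, 114, 125, 127 and 165 CPM in NT+/+ AL mice, 206, 145, 75.4, 115 and 148 CPM in NT+/+ Fast mice, 156, 113, 167 and 133 CPM in NT-/- AL mice and 145, 129.7, 71.8, 126 and 95.4 CPM in NT-/- Fast mice. The lowest value of each fasted group belonged to the male mouse of set 3. Its log2 fold change with fasting was 0.06 ± 0.21 in NT+/+ mice (SE; edgeR, adjusted p = 0.867), where its sign turned when NT+/+ Fast 1 was left out (-0.13), and -0.33 ± 0.22 in NT-/- mice (adjusted p = 0.314). The 95% intervals, -0.37 to 0.50 and -0.79 to 0.14, leave room for a change of either sign. Of the 10 relatives, BMP receptors, inhibitors and target genes listed with it, 1 passed: Bmpr1a, a BMP receptor, fell by 0.22 on the log2 scale in NT+/+ mice (edgeR, adjusted p = 0.0371), and its log2 fold change in NT-/- mice was -0.14 (adjusted p = 0.192).

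Slc12a2, the sodium-potassium-chloride cotransporter that loads cells with chloride for secretion, ranged from 523 to 725 CPM in NT+/+ AL, 432 to 645 in NT+/+ Fast, 572 to 679 in NT-/- AL and 463 to 602 CPM in NT-/- Fast mice. The groups overlapped in every comparison. Fasting gave a log2 fold change of -0.19 ± 0.12 in NT+/+ mice (SE; edgeR, adjusted p = 0.283) and -0.23 ± 0.13 in NT-/- mice (adjusted p = 0.189). Among 9 channel, transporter and kinase genes of ion transport listed with it, 2 fell and 1 rose in NT+/+ mice, and 1 fell and 1 rose in NT-/- mice. Kcne3, the subunit of the basolateral potassium channel that works with Slc12a2 in secretion, fell from 83.7 to 37.6 CPM on average in NT+/+ mice (log2 fold change, -1.15; edgeR, adjusted p = 6.41e-05) and from 94.3 to 26.5 CPM in NT-/- mice (-1.82; adjusted p = 7.74e-07). Its channel partner Kcnq1 rose by 0.37 in NT+/+ mice (edgeR, adjusted p = 0.0175), with a log2 fold change of 0.25 in NT-/- mice (adjusted p = 0.121).

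Aqp4, a water channel, measured 38.0 to 55.5 CPM in NT+/+ AL, 40.3 to 71.7 in NT+/+ Fast, 31.9 to 54.5 in NT-/- AL and 40.5 to 63.9 CPM in NT-/- Fast mice. The log2 fold change with fasting was 0.24 ± 0.18 in NT+/+ mice (SE; edgeR, adjusted p = 0.367) and 0.21 ± 0.19 in NT-/- mice (adjusted p = 0.467), and the groups overlapped. Of 5 other aquaporins listed, 3 rose in NT+/+ mice and 4 in NT-/- mice. Aqp1 rose from 99.1 to 247 CPM on average in NT+/+ mice (log2 fold change, 1.32; edgeR, adjusted p = 1.54e-06) and from 113 to 273 CPM in NT-/- mice (1.28; adjusted p = 4.40e-06). Aqp3 rose from 2.46 to 8.55 CPM (1.79; edgeR, adjusted p = 0.00399) and from 2.64 to 12.1 CPM (2.18; adjusted p = 0.00129), and Aqp11 by 0.56 and 0.76.

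Cdk6, a kinase that with D-type cyclins takes cells into the division cycle, had a coefficient of variation of 9.54% to 15.7% within the 4 groups. It ranged from 93.3 to 127 CPM in NT+/+ AL, 99.0 to 125 in NT+/+ Fast, 103 to 133 in NT-/- AL and 87.8 to 133 CPM in NT-/- Fast mice. Its log2 fold change with fasting was -0.00 ± 0.11 in NT+/+ mice (SE; edgeR, adjusted p = 0.990; 95% interval, -0.23 to 0.22) and -0.12 ± 0.11 in NT-/- mice (adjusted p = 0.493; 95% interval, -0.36 to 0.12). Of the 9 cyclins, kinases, inhibitors and the retinoblastoma gene listed with it, 3 fell and 0 rose in NT+/+ mice, and 4 fell and 1 rose in NT-/- mice. Ccnd1, a D-type cyclin that activates Cdk6, fell from 184 to 96.4 CPM in NT+/+ mice and from 145 to 75.6 CPM in NT-/- mice, by 0.93 on the log2 scale in each (edgeR, adjusted p = 0.000906 and 0.00113). Ccnd3 fell by 0.46 and 0.42, and Rb1, which D-type cyclin kinases inactivate, by 0.50 and 0.36 (edgeR, all adjusted p under 0.05).

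Cdca7, a chromatin protein that recruits the remodeler Hells and is induced in S phase, measured 104, 79.3, 99.8, 86.1 and 110 CPM in NT+/+ AL mice and 129, 87.7, 80.5, 90.5 and 95.6 CPM in NT+/+ Fast mice. In the knockout it measured 104, 83.4, 109 and 98.0 CPM in NT-/- AL mice and 94.4, 84.3, 61.7, 75.1 and 73.2 CPM in NT-/- Fast mice. Of the NT-/- Fast mice, 3 of 5 were below every fed NT-/- mouse. The log2 fold change was 0.01 ± 0.13 in NT+/+ mice (SE; edgeR, adjusted p = 0.951) and -0.34 ± 0.14 in NT-/- mice (adjusted p = 0.0720). The latter passed with the set as a block (-0.31; edgeR, adjusted p = 0.0402), with no scaling factors (-0.40; adjusted p = 0.0268), and without NT+/+ Fast 1 (adjusted p = 0.0354) or NT-/- Fast 1 (adjusted p = 0.0296). Of 7 relatives, partners and cell cycle genes listed with Cdca7, 3 fell in NT+/+ mice and 5 in NT-/- mice, and 0 rose. Mcm5, a subunit of the replicative helicase, fell by 0.50 and 0.80 on the log2 scale (edgeR, adjusted p = 0.00597 and 0.000187), and Dnmt1, the maintenance DNA methyltransferase, by 0.27 and 0.44 (adjusted p = 0.0417 and 0.00257).

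Soat1 ranged from 66.4 to 94.6 CPM in NT+/+ AL, 61.3 to 111 in NT+/+ Fast, 81.2 to 101 in NT-/- AL and 67.4 to 95.6 CPM in NT-/- Fast mice. Fasting gave a log2 fold change of -0.01 ± 0.14 in NT+/+ mice (SE; edgeR, adjusted p = 0.977) and -0.25 ± 0.15 in NT-/- mice (adjusted p = 0.251). Of 8 cholesterol genes listed with it, 3 rose in NT+/+ mice, 3 rose in NT-/- mice, and 0 fell. Nceh1, which hydrolyzes the cholesterol esters that Soat1 makes, rose from 17.1 to 29.9 CPM in NT+/+ mice (log2 fold change, 0.81; edgeR, adjusted p = 4.17e-05) and from 21.0 to 31.8 CPM in NT-/- mice (0.60; adjusted p = 0.00103). Npc1, which exports cholesterol from lysosomes, rose by 0.47 (edgeR, adjusted p = 0.00694) and 0.40 (adjusted p = 0.0213).

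Markers of other crypt cells moved with fasting beside these genes. Of 9 enterocyte markers, 7 rose in NT+/+ and 9 in NT-/- mice, and their summed level was 3843 to 7903 CPM in NT+/+ AL, 7650 to 15967 in NT+/+ Fast, 5825 to 8629 in NT-/- AL and 14073 to 18917 CPM in NT-/- Fast mice. Of 8 markers of dividing cells, 5 fell in NT+/+ and 7 in NT-/- mice, and their sum was 1603 to 1835, 1069 to 1432, 1552 to 1683 and 884 to 1191 CPM in the same order. Of 7 goblet cell markers, 2 fell and 1 rose in NT+/+ mice and 4 fell and 1 rose in NT-/- mice, while 0 and 1 of 9 Paneth cell markers fell. The part of these other cells in the changes of the 9 members was not tested.

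A count of Olfm4 for each count of Lgr5 in the same mouse does not depend on how libraries are scaled, and the ratio was formed after the values had been seen. It was 72.8, 75.3, 63.1, 60.0 and 62.6 in NT+/+ AL mice and 35.5, 26.4, 47.2, 20.3 and 48.1 in NT+/+ Fast mice. In the knockout it was 55.7, 53.8, 48.9 and 63.9 in NT-/- AL mice and 28.4, 29.2, 30.5, 28.6 and 32.5 in NT-/- Fast mice. The fed and fasted mice did not overlap in either genotype, whereas the ratio to Lgr5 did not overlap for 3.49% of the other genes in NT+/+ mice and 8.90% in NT-/- mice. Smoc2 gave 3.02 to 4.42 counts per Lgr5 count in NT+/+ AL and 2.03 to 3.42 in NT+/+ Fast mice, and 2.93 to 3.73 in NT-/- AL and 2.25 to 2.65 in NT-/- Fast mice, so that only the NT-/- groups were separate. Igfbp4 gave 0.609 to 0.820 and 0.681 to 1.55, and 0.559 to 0.726 and 0.695 to 1.03, with overlap in both genotypes. The Lgr5-EGFP allele by which the study describes its fed and fasted mice is EGFP-IRES-CreERT2 knocked into Lgr5. The study also kept both genotypes without it. The labels of the sequenced mice do not name the allele, and its bearing on the Lgr5 counts was not tested.

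**Figure D4:**
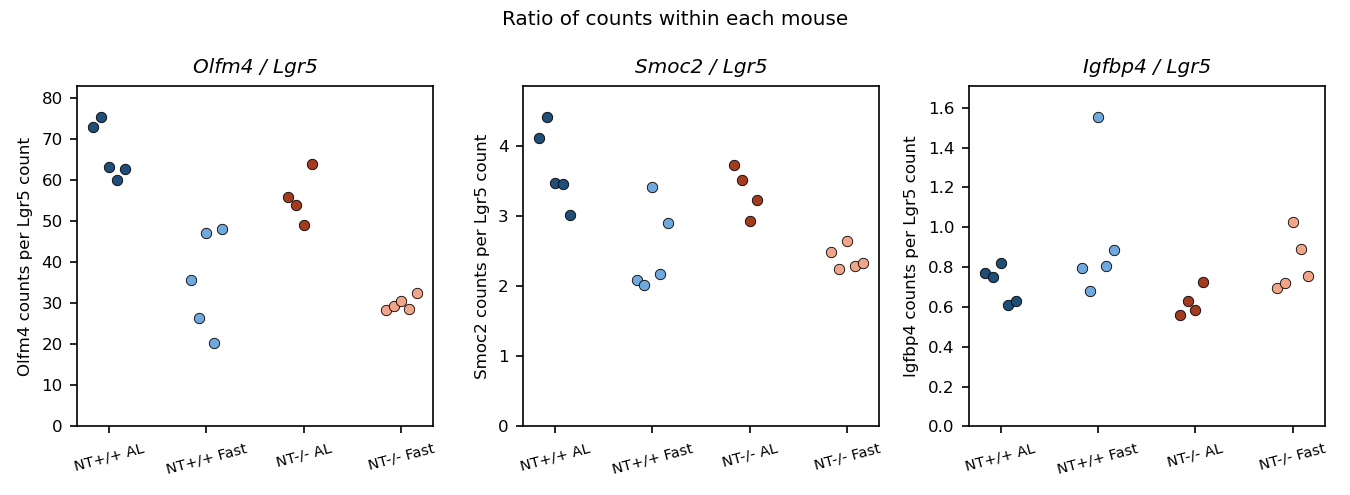
Counts of Olfm4, Smoc2 and Igfbp4 divided by the count of Lgr5 in the same library, 1 point per mouse; axes start at 0. The Olfm4 ratio lies between 48.9 and 75.3 in fed mice and between 20.3 and 48.1 in fasted mice of both genotypes.

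Genotype was compared next within each diet. In ad libitum-fed mice 0 of the 9 members passed, against 0.00559% of all tested genes (1 gene, Nts), and by DESeq2 also 0 of 9. At an unadjusted p under 0.05 there were 0 of 9 as well, against 1.67% of all tested genes, and no member's groups were separate, against 0.694%. Log2 fold changes of NT-/- over NT+/+ lay between -0.07 (Olfm4) and 0.23 (Soat1), with a median of 0.06 beside -0.00 for all tested genes. Olfm4 measured 1719 ± 360 CPM (SD, n = 4) in NT-/- AL and 1809 ± 379 CPM (n = 5) in NT+/+ AL mice, and the 95% interval of its log2 fold change was -0.53 to 0.38. For Cdk6, Slc12a2 and Smoc2 the intervals were narrower, -0.11 to 0.36, -0.19 to 0.34 and -0.21 to 0.33. In organoids cultured from crypts, the study measured less Olfm4 mRNA in the knockout by real-time PCR. Organoids are a material unlike the fresh crypts sequenced here.

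In fasted mice 0 of the 9 members passed between the genotypes, again against 0.00559% of all tested genes (Nts), and by DESeq2 also 0 of 9. Cdca7 had an unadjusted p under 0.05, as did 9.14% of all tested genes, and the groups overlapped for 9 of 9 members, against 1.56% of all tested genes whose groups were separate. Its mean was 77.7 ± 12.3 CPM in NT-/- Fast and 96.6 ± 18.8 CPM in NT+/+ Fast mice (SD, n = 5 and 5), the log2 fold change was -0.31 ± 0.13 (SE; edgeR, adjusted p = 0.455), and it was lower in the knockout in 5 of 5 sets. Igfbp4 was also lower in the knockout in 5 of 5 sets (24.6 ± 2.27 against 30.0 ± 4.36 CPM; log2 fold change, -0.28 ± 0.16; edgeR, adjusted p = 0.633). Olfm4 was lower in 4 of 5 sets (log2 fold change, -0.36 ± 0.21; edgeR, adjusted p = 0.651), but its log2 fold change was -0.10 without the 4 libraries in doubt and -0.0097 with NT+/+ Fast 5 grouped by its other label. The 9 log2 fold changes had a median of -0.16 beside -0.01 for all tested genes, and 7 of 9 were below 0, against 52.7% of all tested genes. This count was 4 of 9 without the 4 libraries in doubt (median, 0.0095) and 4 of 9 with NT+/+ Fast 5 regrouped (median, 0.0045). With the set as a block Olfm4, Igfbp4 and Cdca7 had an unadjusted p under 0.05, as did 14.8% of all tested genes, and 0 of the 9 passed after adjustment.

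Whether the response to fasting differed by genotype was tested as an interaction. It passed for 0 of the 9 members, as for 0% of all tested genes, and 0 of the 9 had an unadjusted p under 0.05, as did 2.71% of all tested genes; DESeq2 called 0 of the 9 as well. With the set as a block, Smoc2 passed for fasting in both genotypes. Without a block, Smoc2 passed in NT-/- mice alone and Igfbp4 in NT+/+ mice alone, without a difference that passed. The differences were -0.22 ± 0.18 for Smoc2 and -0.27 ± 0.23 for Igfbp4 (SE; edgeR, adjusted p = 1.00 for each). Without the 4 libraries in doubt these differences were -0.0040 for Smoc2 and -0.17 for Igfbp4. The estimates were nevertheless below 0 for 9 of 9 members, against 52.0% of all tested genes, from -0.03 (Aqp4) to -0.39 (Rgmb) with a median of -0.24, beside -0.01 for all tested genes.

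Within the 4 sets that had a mouse in every group, 7 of the 9 members had a difference below 0 in 4 of 4 sets, which held for 9.94% of all tested genes. The exceptions were Olfm4 and Aqp4, with 3 of 4 sets each. Each of these 4 sets holds 1 of the 4 libraries in doubt, so the count has no value without them. The widest median within sets was that of Cdca7 (-0.33; range, -0.60 to -0.13), followed by Igfbp4 (-0.31; range, -0.59 to -0.21). The members share mice and deviate together within mice, as described next, so these 9 estimates are not 9 independent observations. The direction of Olfm4, Slc12a2 and Aqp4 also turned (to 0.06, 0.09 and 0.21) when NT+/+ Fast 5 was grouped by its other label, and that of Olfm4, Slc12a2, Aqp4 and Cdk6 without the 4 libraries in doubt (0.01, 0.15, 0.26 and 0.05). The estimates below 0 then numbered 6 of 9 (median, -0.10) and 5 of 9 (median, -0.0040). The 6 ISC genes that the study plotted for these same mice gave 6 of 6 estimates below 0 (median, -0.38), and 0 of the 6 passed.

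Mice of one group differed from each other in these markers in a shared way. Deviations from the group mean (log2 CPM) were positively correlated in 36 of 36 pairs of members over the 19 mice, with a median r of 0.60 (range, 0.11 to 0.95), given as a description without a test because the values of one mouse share a library. Pairs of other genes were not counted in this way, so the shared variation is not shown to be particular to these markers. The closest pair was Olfm4 and Aqp4 (r = 0.95), followed by Olfm4 and Slc12a2 (r = 0.89) and Slc12a2 and Aqp4 (r = 0.87). Olfm4 and Aqp4 thus varied together among mice of a group, yet Olfm4 fell with fasting and Aqp4 had estimates above 0, and over all 19 mice without removing group means their r was 0.26. Rgmb and Cdca7 were also close (r = 0.86), whereas Rgmb and Cdk6 (r = 0.11) and Soat1 and Igfbp4 (r = 0.13) were the loosest pairs.

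Part of this variation followed the sets of mice. The deviations over all genes did so too (mean r, 0.23 for mice of the same set and -0.056 for others). How many other genes lay on 1 side of the group mean throughout a set was not counted. In set 2, Olfm4, Smoc2, Slc12a2, Aqp4, Cdk6 and Igfbp4 were below the group mean in 4 of 4 mice, with a mean deviation of -0.28 for Olfm4 and -0.34 for Igfbp4. In set 5, Olfm4, Smoc2, Slc12a2, Aqp4 and Igfbp4 were above the group mean in 4 of 4 mice, by 0.39 for Olfm4 and 0.38 for Aqp4. Rgmb was lowest in set 3 (mean deviation, -0.49; 3 of 3 mice below 0), in which Igfbp4 was above its group mean in 3 of 3 mice (0.21). In the labels sets 1, 2 and 4 are female and sets 3 and 5 male, apart from 1 mouse of set 5 with no sex given, and the part of sex was not tested.

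**Figure D5:**
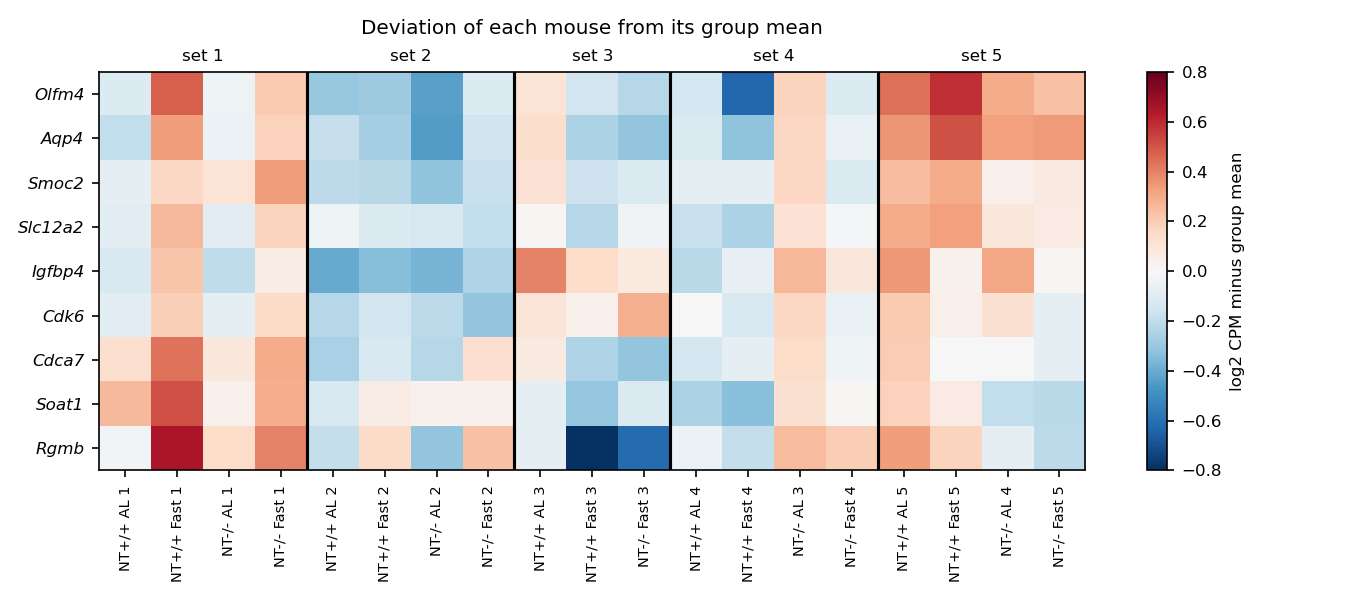
Deviation of each mouse (columns, grouped by set) from its group mean in log2 CPM for the 9 markers (rows); red is above and blue below the mean. Set 2 is blue for Olfm4 and Igfbp4 in 4 of 4 mice, and set 5 is red for Olfm4 and Aqp4 in 4 of 4 mice.

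For each member the genes of most similar level over the 19 mice were sought among 13246 others with an average of at least 1 log2 CPM, by Pearson's r of log2 CPM. Olfm4 was closest to Cnn3 (r = 0.96), Prom1 (0.95) and Myb (0.95), of which Prom1 and Myb are themselves stem and progenitor cell genes. Smoc2 was closest to Mgme1 (0.92), Olfm4 (0.92) and Mesd (0.91), Rgmb to Plcxd2 (0.92), D11Wsu47e (0.90) and Axin2 (0.89), and Cdca7 to Tsr1 (0.90), Lrig1 (0.89) and Twnk (0.87). Igfbp4 was closest to Zbtb12 (0.87), Ptp4a3 (0.87) and Rps24 (0.85), Aqp4 to Tmem209 (0.90), Ncl (0.83) and Pabpc1 (0.80), and Slc12a2 to Rps6ka6 and Sypl (0.86 each). Cdk6 was closest to Pitpnm2 (0.81), Zmynd19 (0.80) and Pus7 (0.80), and Soat1 to Cd24a (0.86) and Ccdc127 (0.82). Since 13246 genes were ranked over 19 mice, high values of r occur among them in any case.

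Of 24 further genes of crypt-base stem cell signatures, 5 rose and 4 fell with fasting in NT+/+ mice, where 21.6% of all tested genes were called. In NT-/- mice 2 rose and 6 fell, where 25.2% of all tested genes were called. The median log2 fold change of the 24 was -0.01 and -0.22, beside -0.00 and -0.25 for the 9 members. Noxa1, an activator of NADPH oxidase, fell from 20.0 to 9.07 CPM in NT+/+ mice (log2 fold change, -1.14; edgeR, adjusted p = 0.000438) and from 13.9 to 6.55 CPM in NT-/- mice (-1.09; adjusted p = 0.000980). The nuclear receptor Esrrg fell by 0.57 and 0.33 (edgeR, adjusted p = 0.000899 and 0.0408), and the Wnt target Sp5 rose by 0.78 and 0.82 (adjusted p = 0.00125 and 0.00122). The 6 ISC genes of the study, which it chose to plot from these same mice, had a median log2 fold change of 0.39 in NT+/+ mice, with 6 of 6 above 0. In NT-/- mice it was -0.06, with 2 of 6 above 0, and 0 of the 6 passed in either genotype (edgeR). Their directions may depend on that choice, which was not tested. The study's own sequencing analysis states that some, but not all, of its ISC genes failed to reach significance in NT+/+ mice. By real-time PCR it found Lgr5 and Ascl2 raised by fasting in NT+/+ but not NT-/- mice. In situ hybridization in distal crypts gave the same pattern for Lgr5. Of the 9 members, 4 were above 0 in NT+/+ mice and 2 in NT-/- mice, whereas 50.9% and 52.4% of all tested genes were below 0. Without the 4 libraries in doubt the counts of members above 0 were 5 and 3. The 6 genes of the study were not recounted without these libraries.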

How the data were processed

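RNA-seq of ribosomal RNA-depleted, single-end libraries from crypts of 19 mice was used. The authors trimmed reads with Trimmomatic 0.39 and quantified them against Ensembl transcripts (GRCm38) with RSEM. The deposited expected counts are not normalized, and RSEM's model divides reads that fit several genes. The deposited TPM values were made by the authors with RSEM from these counts, transcript length and depth. An effective length in bases, another unit, was also deposited by the authors. The RSEM version and the strand setting are not given in the sources used here. TPM set the order of genes within a mouse, and effective length served to check that order. No columns of the authors' own comparisons were in the files.

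Expected counts were rounded and tested in edgeR 4.0.16 (R 4.3.3): TMM normalization, filterByExpr, 1 coefficient per group over all 19 mice without covariates, and the quasi-likelihood test with Benjamini-Hochberg adjustment over 17875 genes at 0.05. SEs were taken from the fold change and its F statistic. CPM uses TMM library sizes, and log2 CPM a prior count of 2. The fit was tested on simulated data with known changes. Depth limits genes of low count most, and Igfbp4 had the lowest counts of the members (182 to 640 per mouse). Its SE for fasting in NT+/+ mice (0.16) was nonetheless below that of Olfm4 (0.21).

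The files' names carry a set number for each mouse, which differs from the number in the titles for NT-/- AL 3 and 4 (sets 4 and 5). The study used littermates matched for sex and age as fed controls of its fasted mice but does not say what the numbers mean. Deviations from group means over all genes correlated in every same-set pair of the tested comparisons of 2 groups (r, 0.117 to 0.499). Over all 27 same-set pairs of mice from different groups the lowest r was 0.067, and 24 had r over 0.1. Sets were therefore taken to pair the mice. Fits with the set or the title number as a block, other scalings and filters, DESeq2 1.42.0, subsets of mice and each mouse left out were alternatives. Every library is a mouse of its own.

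The 9 members and the lists of partners, signature genes and markers were chosen with earlier results of these data known. Named genes are all members, Nts, the study's 6 genes as counts, up to 3 genes per list with the smallest p among those past the threshold with fasting, and the 3 genes most like each member, of which some are not reported here. Kcne3 and other listed genes follow this rule; single mice and ratios were chosen after their values were seen. Promoter windows are from RefSeq; none was found for Smoc2.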

Additional observations from a re-analysis of the deposited data

Results flagged for a closer look

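Of 36 groups of mice (9 members in 4 groups), 2 held a mouse that stood apart from the others of its group by Dixon's test at the 95% level, which chance alone does in about 1 group in 20. Rgmb was 165 CPM in NT+/+ AL 5, above the 114 to 129 CPM of the other 4 mice of that group. Igfbp4 was 20.7 CPM in NT-/- Fast 2, below the 24.8 to 26.1 CPM of the other 4 mice; this library was also the one with the lowest total, 9059457 counts.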

How the results depend on the processing

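Under 10 alternatives other than leaving out 1 mouse, 394 values of single members kept their direction and their side of the 0.05 threshold, 6 came to pass it, 2 no longer passed it and 39 turned in sign. In NT+/+ mice the number of members called was 1 when only the groups compared entered the fit and 1 to 3 with each mouse left out. Igfbp4 in NT+/+ mice and Olfm4 in NT-/- mice were called under each alternative run. Smoc2 in NT+/+ mice was gained without NT+/+ Fast 5 (edgeR, adjusted p = 0.0496). In NT-/- mice the number was 4 with the title number as a block, 1 without the 4 libraries in doubt, an alternative chosen after seeing the data, and 2 to 3 with each mouse left out. Between genotypes DESeq2 called 3 genes in fed and 77 in fasted mice, against 1 in each by edgeR. There were 0 in each with at least 10 counts in every mouse, where Nts was filtered out, and 0 in each with NT+/+ Fast 5 grouped as NT-/- Fast. That grouping puts a mouse with Nts at 5.43 CPM among the NT-/- mice. In fasted mice 1 to 4 were called with each mouse left out, 4 of them without NT-/- Fast 1. The cause of these changes was not tested.

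With the set as a replicate block, Smoc2 in NT+/+ mice (log2 fold change, -0.27) and Cdca7 in NT-/- mice (-0.31) were gained and no other call of a member changed. The block by title number (19 of 27 pairs with r over 0.1, against 24 of 27 by set) also gained Slc12a2 in NT-/- mice (-0.30; edgeR, adjusted p = 0.0405).

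None of the 39 values whose sign turned was called. For fasting in NT+/+ mice Cdk6 was 0.0021 with no scaling factors, 0.0047 with upper quartile scaling, 0.0033 with DESeq2, 0.00022 with the set block and 0.00018 with only the groups compared. Soat1 was 0.00904 with no scaling factors, 0.0017 with upper quartile scaling and 0.058 without the 4 libraries, and Rgmb -0.0036 with the set block. In NT-/- mice Cdk6 was 0.018 without the 4 libraries. For genotype in fed mice Igfbp4 was 0.00923 with no scaling factors, 0.0012 with no filter, 0.025 with the title block and 0.044 with the set block. Olfm4 was 0.044 with the title block, Rgmb -0.030 and Aqp4 -0.035 with the set block, and Aqp4 -0.037 without the 4 libraries. For genotype in fasted mice Slc12a2 was -0.023 and Cdk6 -0.044 with no scaling factors. Cdk6 was -0.0014 with upper quartile scaling, -0.0018 with the title block and -0.0018 with the set block, and Soat1 0.0063 and 0.0033 with these blocks. With NT+/+ Fast 5 regrouped Smoc2 was 0.0051, Aqp4 0.22 and Soat1 0.0045, and without the 4 libraries 0.036, 0.22 and 0.0095. For the interaction Aqp4 was 0.025 with the set block. With NT+/+ Fast 5 regrouped Olfm4 was 0.064, Slc12a2 0.091 and Aqp4 0.21, and without the 4 libraries Olfm4 was 0.0053, Slc12a2 0.15, Aqp4 0.26 and Cdk6 0.047.

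With each mouse left out, signs turned within these ranges. For fasting in NT+/+ mice these were -0.13 to 0.22 (Rgmb), -0.057 to 0.053 (Cdk6), -0.16 to 0.073 (Soat1) and -0.11 to 0.073 (Cdca7). For genotype in fed mice they were -0.18 to 0.052 (Olfm4), -0.10 to 0.14 (Aqp4), -0.12 to 0.10 (Igfbp4) and -0.020 to 0.11 (Cdca7). For genotype in fasted mice they were -0.031 to 0.12 (Slc12a2), -0.12 to 0.12 (Aqp4), -0.069 to 0.077 (Cdk6) and -0.093 to 0.14 (Soat1), and for the interaction -0.13 to 0.041 (Slc12a2) and -0.16 to 0.11 (Aqp4).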
